A study of Mus musculus with 20 samples.

Results

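The 6 mouse genes described here encode poly(A)-binding proteins (*Pabpc1*, *Pabpc4* and *Pabpn1*) and the PABP-interacting proteins that act on them (*Paip1*, *Paip2* and *Paip2b*). They were chosen by symbol, out of 14924 genes with counts of total and polysomal RNA. All 6 had such counts, 5 were among the 9621 genes with 3′ end counts, and 4 were among the 1304 protein coding genes with a binding site of the RNA-binding protein HuD. The data come from NSC-34, a mouse hybrid line of neuroblastoma and motor neuron-enriched embryonic spinal cord cells, carrying the tetracycline repressor (Trex cells). HuD cells were infected with a lentivirus for inducible human HuD with a His-HA tag. HuD was induced with tetracycline at 2 µg/ml for 48 h for RNA-Seq (total RNA, 2 HuD and 2 control libraries), POL-Seq (polysomal RNA from a sucrose gradient, 2 and 2) and 3′ end sequencing (3 and 3). The labels of those control libraries say only that they are controls, and do not give their treatment. For CRAC, which maps crosslinked sites of the tagged protein on RNA, HuD cells and control Trex cells (3 libraries each) both received 10 µg/ml tetracycline for 24 h. These treatments are those of the labels, whereas the paper's text names doxycycline for the inducible cells, and for CRAC its results and its methods differ in agent, dose and time. All groups are of this cell line and carry their own *Elavl4* gene, and whether the HuD cells are 1 clone is not given in the sources used here.

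Cytoplasmic poly(A)-binding proteins coat the poly(A) tail of mRNAs, bind the scaffold eIF4G at the cap, and so bring both ends of the mRNA together for initiation. *Pabpc1* encodes the main cytoplasmic form and *Pabpc4* a related, inducible form. *Pabpn1* encodes the nuclear protein that sets the length of new poly(A) tails. PAIP1 binds PABP and eIF4A and favours translation, whereas PAIP2 and PAIP2B displace PABP from the tail and from eIF4G and restrain it. *Pabpc1* mRNA is a well-known member of the mRNAs with a terminal oligopyrimidine tract, which also encode ribosomal proteins and are held off polysomes when growth signals are low.

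CRAC windows were listed for 4 of the 6 genes, and all 5 windows lay in 3′ UTRs. Each window is given with 11 nt of mRNA on both sides, 5′ to 3′, with the window in capitals, because these are the bases listed as contacts of HuD. The sequences were read from GENCODE vM21 transcripts on GRCm38, where each listed window matched exactly, with a start that differed from the listed one by 2 nt (plus strand) or -1 nt (minus strand).
*Pabpc1*: ccugggaaaagAAUUUUCagcaaaguaca
*Pabpc4*: auucaauagguCAUUUUGuaucagaaggu
*Paip1*, first window: aacuuaaaaugUGUAUAUAuauauaauagu
*Paip1*, second window: guuuuuuguguGCUUUGCccgacuaacuu
*Paip2b*: aauuacaaaaaAGUUUUGgguuguuuuuu
Of these, 4 windows are 7 nt long with UUU at positions 3 to 5, preceded by A in *Pabpc1* and *Pabpc4*, by C in *Paip1* and by G in *Paip2b*, and the first window of *Paip1* is an 8-nt UGUAUAUA stretch that runs on into further UA repeats.

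The *Pabpc1* window lies at chr15:36595827-36595833 on the minus strand, 267 nt into a 3′ UTR of 439 nt. It had 298 covering reads in the pooled HuD libraries and 19 reads with a deletion, the trace of a crosslink. The 2 windows of *Paip1*, on the plus strand at chr13:119457296-119457303 and chr13:119457759-119457765, had 72 reads with 3 deletions and 17 reads with 5 deletions. Coverage was thus far higher on *Pabpc1* than on the gene for its activating partner. *Pabpc4*, at chr4:123298619-123298625 on the plus strand, had 14 reads with 3 deletions, and *Paip2b*, at chr6:83806562-83806568 on the minus strand, 10 reads with 7 deletions. No window of the 5 had a control read. The authors' site search penalised positions with control reads, so this absence partly reflects how the list was made. *Pabpn1* and *Paip2* had no listed window, and since the table holds only sites above a minimum of signal, weaker contacts of HuD with them cannot be seen there.

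Of the protein coding genes with counts, 9.9% (1282 of 12953) had a window, against 4 of the 6 genes here. That background was not matched for mRNA level, and whether the difference goes with level was not tested. *Pabpc1* held 72.5% of the 411 covering reads on the 6 genes (95% Wilson interval 68.0% to 76.6%, for counting error only). It ranked 100th of the 1304 target genes by coverage, *Paip1* 299th with 89 reads over both windows, *Pabpc4* 887th and *Paip2b* 1013th. The median target had 27 reads, so that *Pabpc4* and *Paip2b* lay under it. CRAC coverage was pooled over replicates by the authors, so it carries no replicate error. The authors' combined p-value, not adjusted over sites, was 0.00516 for the window of *Pabpc1*, and 0.133 to 0.337 for the other 4.

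Coverage was also set against the level of each mRNA. Divided by the mean level in total RNA of control cells, in CPM (counts scaled to a common library total), coverage was 0.257 reads per CPM on *Pabpc1*, 0.741 on *Paip1*, 0.245 on *Pabpc4* and 0.113 on *Paip2b*, against a median of 0.288 over the 1282 targets with counts. On that scale *Paip1* (336th) came before *Pabpc1* (692nd), *Pabpc4* (711th) and *Paip2b* (995th). The order of *Pabpc1* and *Paip1* is thus reversed between coverage and coverage per CPM, and *Pabpc1* lay near the median target on the second scale.

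The 3′ UTRs differed in how much uridine they offer. UUU, counted at every start on the mRNA strand, occurred 9.85 times per 100 nt in the 3′ UTR of *Paip1* and 8.71 times in that of *Pabpc4*. It occurred 3.87 times per 100 nt in *Pabpc1*, 3.58 in *Paip2b*, 3.43 in *Pabpn1* and 3.65 in *Paip2*. The median was 3.24 over all 12785 genes with a 3′ UTR and 4.80 over the 1266 with a window, so *Paip1* and *Pabpc4* were rich in UUU, and *Pabpc1* and *Paip2b*, with a window, had about the density of *Pabpn1* and *Paip2*, without one. The annotated 3′ UTR scored for *Pabpc4*, of 425 nt, runs beyond its listed 3′ ends at 322 and 332 nt. The exact letters of the windows, searched on the mRNA strand only, are common: AAUUUUC was found in 14.7% of all 3′ UTRs, CAUUUUG in 19.4%, AGUUUUG in 17.5%, GCUUUGC in 13.2% and UGUAUAUA in 10.1%. *Paip2* also holds AGUUUUG without a listed window, and the 3′ UTR of *Paip2b* (3435 nt) holds AAUUUUC and GCUUUGC as well, each without a window.

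**Figure D1:**
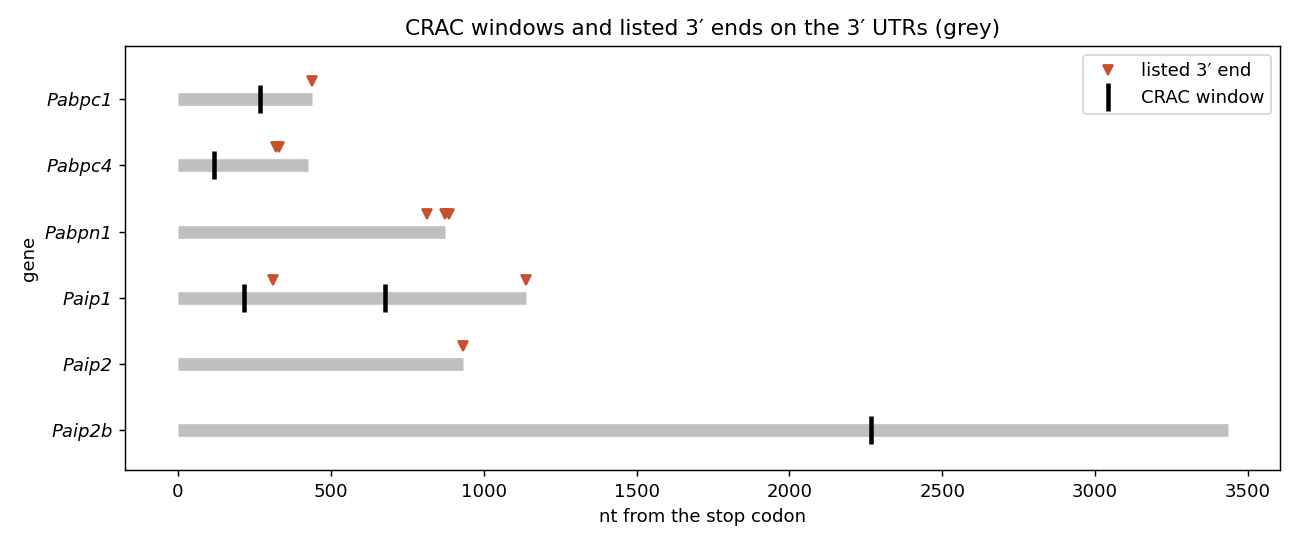
The 3′ UTR of each gene is drawn to scale as a grey bar, in nt from the stop codon, with CRAC windows as black ticks and the 3′ ends listed in the 3′ end table as triangles. The first *Paip1* window lies before both of its ends and the second between them, *Pabpn1* and *Paip2* have no window, and *Paip2b* has no listed end.

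RNA-Seq and POL-Seq libraries held 21296012 to 36284728 counts, and 3′ end libraries 12986862 to 15751036. *Elavl4*, the gene of HuD, was at 78.3 and 97.4 CPM in total RNA of control cells and at 237 and 212 CPM in HuD cells, a log2 difference of 1.35 (SE 0.15, edgeR adjusted p = 0.0866) that DESeq2 called (adjusted p = 3.7e-16). Reads of the human transgene can only enter these counts where they align to the mouse gene, and the 3′ ends of mouse *Elavl4* do not test its induction. There the gene was at 78.1, 38.5 and 78.1 CPM in control and at 54.6, 31.4 and 52.4 CPM in HuD cells, lower in all 3 same-numbered pairs, with a log2 difference of -0.49 (edgeR adjusted p = 0.922, and 0.0306 with a replicate block). Of 8 motor neuron markers, *Mnx1* and *Slc5a7* were not among the genes with counts, *Chat* was at 0.449 to 0.544 CPM, and *Isl1* led the list. Its summed level was 56.8 to 63.5 CPM in control and 54.0 to 61.1 CPM in HuD cells, against 2851 to 3063 and 2949 to 3035 CPM for 10 general neuron markers. Of 4 markers each, the sums for astrocytes were 21.0 to 29.2 CPM in control and 25.2 to 31.1 CPM in HuD cells, those for oligodendrocytes 13.98 to 16.7 and 15.8 to 17.1 CPM, and none of the microglial markers was among the genes with counts.

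Levels per length, in FPKM (CPM per kb of exon), were compared in total RNA of control cells. *Pabpc1* stood at 177 ± 9.8 FPKM (SD, n = 2), followed by *Paip2* with 49.6 ± 6.2, *Paip1* with 34.7 ± 2.2, *Pabpc4* with 14.2 ± 0.97, *Paip2b* with 13.99 ± 0.025 and *Pabpn1* with 4.71 ± 0.85. The main cytoplasmic PABP was thus the most abundant of the 6 mRNAs, and the spread of *Pabpc4* covered the level of *Paip2b*. *Paip2* exceeded its paralogue *Paip2b* in both libraries. For *Pabpn1*, 651 nt of exon (21.5%) are shared with a gene on the same strand, Gm20521, and reads from them could be lost or split in counting. Over the exons unshared in GENCODE vM21 its level would be 5.997 FPKM, still the lowest of the 6 in total RNA. The paper used the Gencode M6 annotation, so the reads lost are unknown. In control 3′ end counts the mean of *Pabpn1* was 85.8 CPM. That was under *Pabpc1* (247) and above *Paip2* (60.2), *Paip1* (14.2) and *Pabpc4* (8.75).

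**Figure D2:**
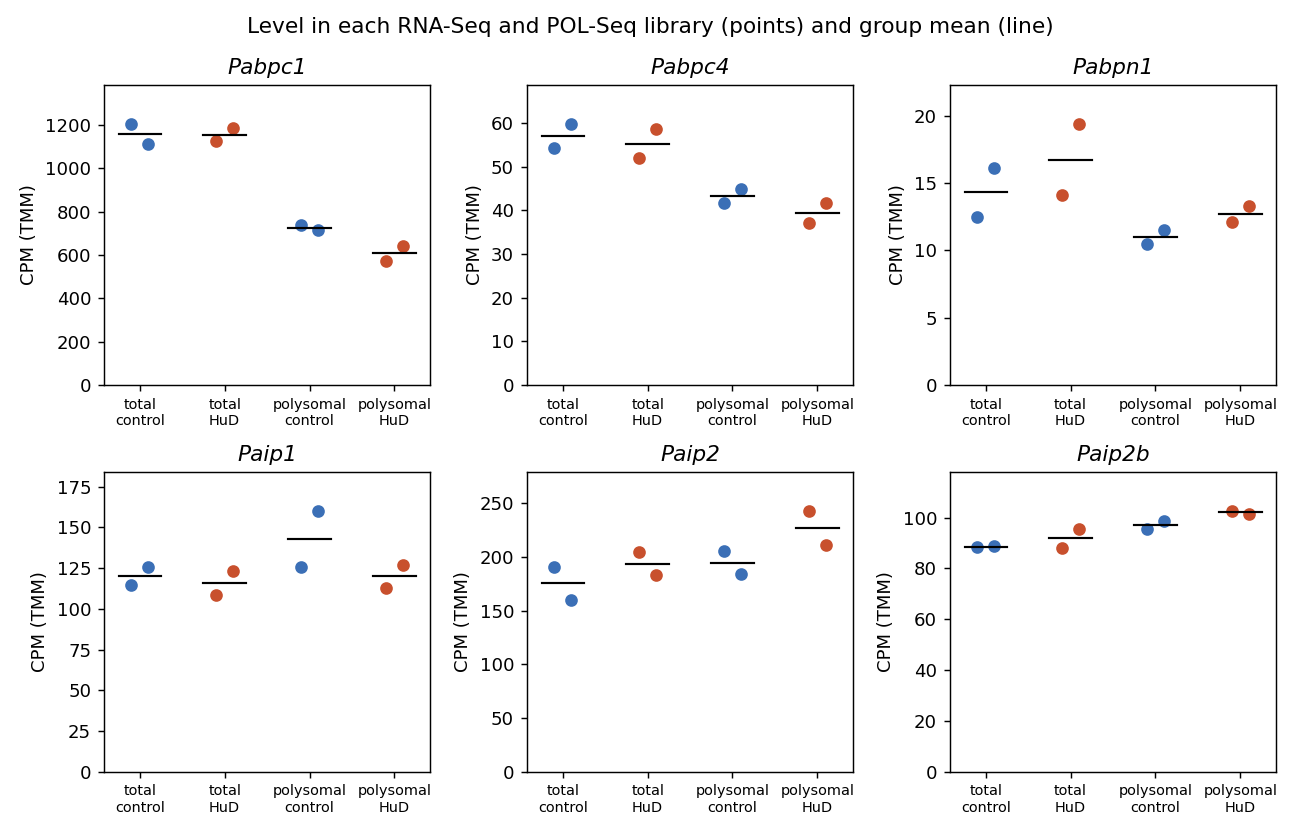
Level of each gene, in TMM-normalised CPM on axes that start at 0, in the 2 libraries of each group (points) with the group mean (line). *Pabpc1* and *Pabpc4* are lower in every polysomal than in every total RNA library, and *Paip2b* is slightly higher in every polysomal library than in the total RNA libraries of the same cells.

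The comparison of POL-Seq with RNA-Seq asks which mRNAs are held on or off polysomes. It is relative, since each library is scaled to its own total. Overlap between libraries is described for single genes, and the share of all genes without it is not given here. In control cells *Pabpc1* was at 1204 and 1113 CPM in total RNA and at 737 and 713 CPM in polysomal RNA, with no overlap. The log2 ratio of polysomal to total was -0.68 (SE 0.10, edgeR adjusted p = 0.0472), which is 0.626-fold. In HuD cells the same gene was at 1125 and 1184 CPM in total RNA and at 572 and 642 CPM in polysomal RNA, again without overlap, with a log2 ratio of -0.93 (SE 0.10, edgeR adjusted p = 0.00839), or 0.526-fold. *Pabpc1* mRNA was therefore lower on polysomes than in total RNA in both kinds of cells.

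It was the only member called in either direction by edgeR in the fit to all 8 libraries without a block. Genes called lower on polysomes were 0.174% of the 14906 tested in control cells (26 genes) and 0.49% in HuD cells (73 genes). Called higher were 0% (0 genes with edgeR, 663 at an unadjusted p-value under 0.05, 2 with DESeq2) and 0.047% (7 genes). With a replicate block, which pairs same-numbered libraries, 41 genes were called in control cells, all lower, and 266 lower and 150 higher in HuD cells. Among the 9702 genes with a mean of at least 10 CPM, only 48 had a lower ratio than *Pabpc1* in control cells and 38 in HuD cells. The call in control cells was lost when any library other than polysomal control 1 was left out (adjusted p = 0.0571 to 0.477) and when only the 4 control libraries were fitted (adjusted p = 0.578). The call in HuD cells was lost when any of the 4 HuD libraries was left out (adjusted p = 0.0605 to 0.248), while the log2 ratio stayed within -0.73 to -0.62 and -1.01 to -0.84 over all libraries left out.

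*Pabpc4* showed a smaller ratio of the same sign. It was at 54.3 and 59.8 CPM in total and at 41.7 and 45.0 CPM in polysomal RNA of control cells, and at 52.1 and 58.6 against 37.1 and 41.6 CPM in HuD cells. In neither did the fractions overlap. The log2 ratio was -0.40 in control cells (95% interval -0.62 to -0.17, edgeR adjusted p = 0.341) and -0.49 in HuD cells (-0.71 to -0.27, adjusted p = 0.0820). With the replicate block, the adjusted p of edgeR was 0.0555 and 0.00795, so that *Pabpc4* passed in HuD cells. It also passed there with DESeq2 (adjusted p = 0.0110), with only the 4 HuD libraries (0.0350), and without polysomal control 1 (0.0192) or 2 (0.0140).

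*Pabpn1*, the nuclear form, was low in these libraries. It was at 12.5 and 16.1 CPM in total and 10.5 and 11.5 CPM in polysomal RNA of control cells. In HuD cells it was at 14.1 and 19.4 against 12.1 and 13.3 CPM. Both polysomal values were under both total values in each. Its log2 ratios of -0.39 (95% interval -0.79 to 0.01) and -0.40 (-0.79 to -0.01) did not pass, with edgeR adjusted p-values of 0.465 and 0.385. With 1 library left out they ranged from -0.56 to -0.19 and from -0.61 to -0.15.

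The 3 genes for PABP-interacting proteins had ratios above 0 instead, none of which passed. *Paip1* was at 115 and 126 CPM in total and at 126 and 160.1 CPM in polysomal RNA of control cells, where its 2 polysomal libraries differed most from each other. In HuD cells it was at 109 and 123 against 113 and 127 CPM, which overlap. The log2 ratios were 0.25 (95% interval -0.04 to 0.54, edgeR adjusted p = 0.481) and 0.05 (-0.24 to 0.33, adjusted p = 0.926). The first rests on which polysomal control library is kept: without polysomal control 1 it was 0.41 (edgeR adjusted p = 0.0357), and without polysomal control 2 it was 0.061 (adjusted p = 0.987).

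*Paip2*, for the main PABP inhibitor, was at 191 and 160.1 CPM in total and at 206 and 184 CPM in polysomal RNA of control cells, and at 204 and 183 against 243 and 211 CPM in HuD cells. The fractions overlapped in control cells and not in HuD cells. The log2 ratios were 0.15 (95% interval -0.12 to 0.42) and 0.23 (-0.04 to 0.50), with edgeR adjusted p-values of 0.5995 and 0.494. *Paip2b* was at 88.5 and 88.8 against 95.7 and 98.7 CPM in control cells and at 88.1 and 95.6 against 103 and 101 CPM in HuD cells. It did not overlap in either, with log2 ratios of 0.13 (-0.04 to 0.31) and 0.15 (-0.02 to 0.33) and edgeR adjusted p-values of 0.518 and 0.494.

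The ratio of the median gene was 0.01 in control and 0.01 in HuD cells. The ratios of the 3 poly(A)-binding protein genes lay below it and those of the 3 others above it, but of the 6 only that of *Pabpc1* passed, a difference between both kinds of genes was not tested, and that of *Paip1* in HuD cells turned negative without polysomal HuD 2 (-0.035) or total HuD 1 (-0.040). The median over the 6 was -0.13 in control and -0.18 in HuD cells. Ratios in same-numbered libraries were alike for *Pabpc1*, at 0.612 and 0.641 of total in control and 0.508 and 0.542 in HuD cells, so that both HuD pairs lay under both control pairs. Those of *Pabpc4* were 0.769 and 0.753 in control and 0.713 and 0.710 in HuD cells, in the same order. For the 80 tested genes of ribosomal proteins (symbols Rpl and Rps, chosen after the calls were seen) the median log2 ratio was -0.22 in control and -0.19 in HuD cells. Of them 6 were called lower in each, beside 0.174% and 0.49% of all genes. Only 9 and 7 of the 80 had a lower ratio than *Pabpc1*.

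**Figure D3:**
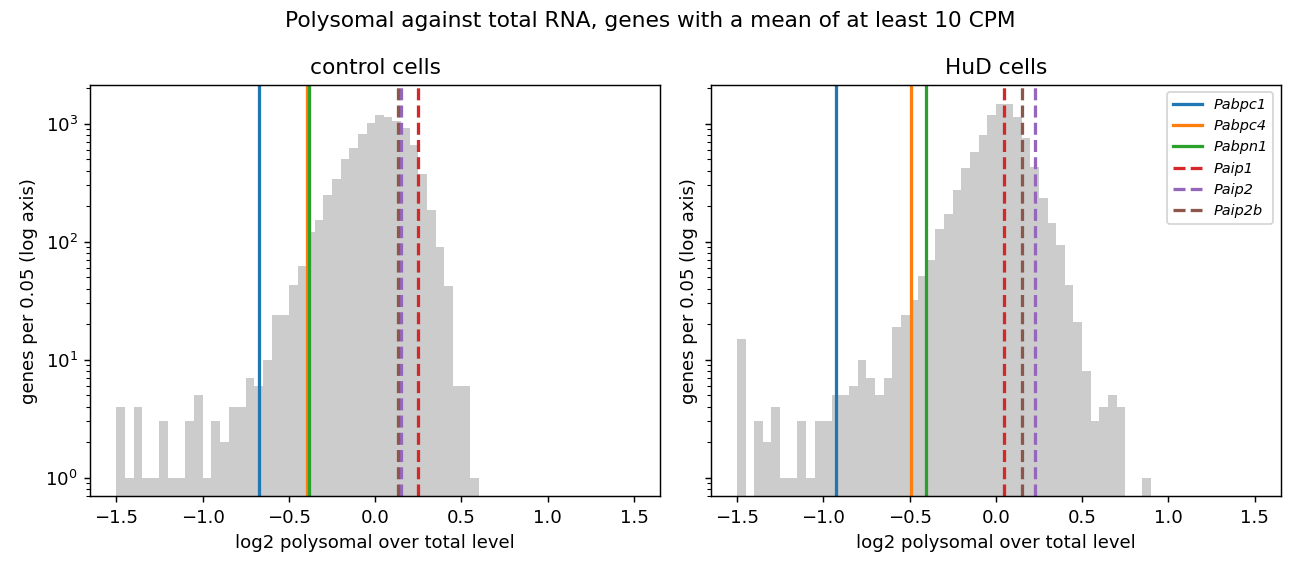
Grey bars count genes (log axis, bins of 0.05, values beyond 1.5 in either direction placed in the outermost bins) by the log2 ratio of polysomal to total level, for the 9702 genes with a mean of at least 10 CPM, and coloured lines mark the 6 genes (solid for poly(A)-binding proteins, dashed for their interacting proteins). *Pabpc1* lies in the far left tail in both panels, at -0.68 and -0.93, and the dashed lines lie right of 0.

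The effect of HuD was compared in total RNA first, where it bears on the steady-state level. In such bulk samples, fewer cells with an mRNA and less of it per cell cannot be told apart. No member passed with edgeR or DESeq2, and without a block none had an unadjusted p-value under 0.05 in edgeR. Over all genes 0% passed (0 of 14906, with 2.64% at an unadjusted p-value under 0.05, and 1 gene with DESeq2). With the replicate block *Paip2* had an unadjusted p-value of 0.0451 (edgeR adjusted p = 0.803). At an unadjusted p-value under 0.05, 533 genes were higher and 385 lower with that block. Every member's control and HuD libraries overlapped. The log2 differences were -0.0047 for *Pabpc1* (95% interval -0.23 to 0.22), -0.04 for *Pabpc4* (-0.26 to 0.18), 0.23 for *Pabpn1* (-0.16 to 0.62), -0.05 for *Paip1* (-0.34 to 0.24), 0.14 for *Paip2* (-0.12 to 0.41) and 0.05 for *Paip2b* (-0.13 to 0.23). The level of *Pabpc1*, the most abundant of them, thus differed between control and HuD cells by less than the spread between libraries.

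In polysomal RNA 1 of the 6 genes had an unadjusted p-value under 0.05, where 4.17% of all genes did, and 0% passed the adjustment with edgeR (0 of 14906, 3 with DESeq2). That gene was *Pabpc1*. With the replicate block 3 of the 6 had an unadjusted p-value under 0.05, *Pabpc1* (0.0132), *Paip1* (0.00810) and *Paip2* (0.00664), each with an edgeR adjusted p of 0.519. More genes reached that threshold with the block, 643 higher and 743 lower of the 14906. The polysomal level of *Pabpc1* was 737 and 713 CPM in control and 572 and 642 CPM in HuD cells, without overlap. Its log2 difference was -0.26 (95% interval -0.48 to -0.03, unadjusted p = 0.0293, edgeR adjusted p = 0.969, without the block). *Paip1*, with 126 and 160.1 against 113 and 127 CPM, had a log2 difference of -0.25 (-0.54 to 0.03), and its groups overlapped, although the HuD library was lower in both same-numbered pairs. *Paip2*, with 206 and 184 against 243 and 211 CPM, had one of 0.22 (-0.04 to 0.49), without overlap. The differences were -0.14 for *Pabpc4* (-0.36 to 0.09), 0.21 for *Pabpn1* (-0.19 to 0.61) and 0.07 for *Paip2b* (-0.11 to 0.25), and these 3 did not overlap either. With 2 libraries a group such separation is easily reached, and its share over all genes is not given here. The 6 genes did not share a direction, and their median of -0.03 lay near that of all genes, -0.01.

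Translation efficiency (TE), the polysomal over the total level, tests whether HuD changed the association with polysomes. No member had an unadjusted p-value under 0.05, as 0.979% of genes did, and 0% passed the adjustment with edgeR (0 of 14906, and 0 with DESeq2). The log2 change in TE of *Pabpc1* was -0.25 (SE 0.14, 95% interval -0.57 to 0.07, unadjusted p = 0.106, edgeR adjusted p = 1.00). The lower polysomal share of *Pabpc1* in HuD cells, though seen in both pairs, thus did not pass the test of the difference. *Paip1* had a change of -0.20 (-0.61 to 0.20), *Pabpc4* of -0.10 (-0.41 to 0.22), *Pabpn1* of -0.02 (-0.58 to 0.54), *Paip2* of 0.08 (-0.30 to 0.46) and *Paip2b* of 0.02 (-0.23 to 0.27). Each interval rests on 2 libraries a group.

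**Figure D4:**
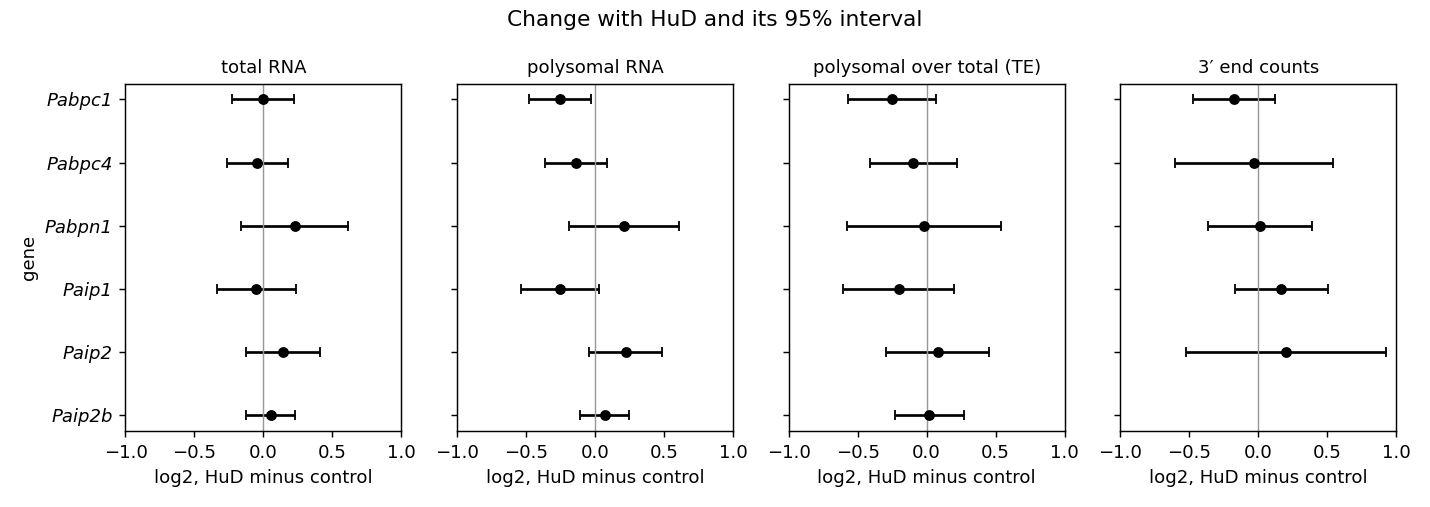
The log2 difference of HuD minus control cells (points) with its 95% interval from the edgeR fit (bars), for total RNA, polysomal RNA, TE and 3′ end counts. Of all intervals drawn, only that of *Pabpc1* in polysomal RNA (-0.48 to -0.03) leaves out 0, before any adjustment, and *Paip2b* has no 3′ end value.

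3′ end sequencing counts the mRNA at its poly(A) end, so it bears both on the level of each gene and on which 3′ end is used. Summed over ends, *Pabpc1* was at 258, 269 and 213 CPM in control and at 214, 237 and 204 CPM in HuD cells, which overlap (log2 difference -0.17, 95% interval -0.47 to 0.12). *Pabpn1* was at 90.4, 89.1 and 78.0 against 86.0, 105 and 68.5 CPM (0.01, -0.37 to 0.39), and overlapped as well. *Pabpc1* was lower in the HuD library of all 3 same-numbered pairs (unadjusted p = 0.214 in edgeR, and 0.0468 with the replicate block, adjusted p = 0.260), and *Pabpn1* in 2 of the 3. An unadjusted p-value under 0.05 was common with that block, with 831 genes higher and 967 lower of the 9621. *Paip1* was at 14.3, 14.8 and 13.6 CPM in control and at 17.3, 15.7 and 14.9 CPM in HuD cells, higher in all 3 HuD libraries, with a log2 difference of 0.17 (-0.17 to 0.50, unadjusted p = 0.292 in edgeR). *Pabpc4* was at 10.3, 9.38 and 6.54 against 7.87, 11.1 and 6.71 CPM (-0.03, -0.60 to 0.54). *Paip2* was at 82.1, 44.4 and 54.1 against 96.2, 72.3 and 39.4 CPM (0.20, -0.52 to 0.92), the widest spread of the 5. No member passed with edgeR or DESeq2, and none was under 0.05 unadjusted without the block, where 0.052% of the 9621 genes passed with edgeR (5 genes, 217 with the replicate block) and 5.87% had an unadjusted p-value under 0.05.

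3′ end levels and RNA-Seq levels did not rank the genes alike. In control cells the 3′ end level was 6.004 times the total RNA level in CPM for *Pabpn1*, but 0.213 times for *Pabpc1*, 0.153 for *Pabpc4*, 0.119 for *Paip1* and 0.343 for *Paip2*. Over the 9399 genes in both tables the median was 0.508, with the middle 50% between 0.211 and 1.14, so that *Pabpn1* lay above that range, and *Pabpc4* and *Paip1* below it. The part that the exons shared with Gm20521 have in the ratio of *Pabpn1* was not tested.

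The gene with a long and a short 3′ UTR was *Paip1*. Its proximal end lies 310 nt and its distal end 1137 nt from the stop codon, and both have AAUAAA, the canonical polyadenylation signal, within the last 40 nt (18 and 30 nt before the end), as 66.7% of the 12847 ends with sequence did. The first CRAC window lies 88 nt before the proximal end and so belongs to both forms. The second begins 368 nt beyond the proximal end, and only the long form carries it. The proximal end took 16.3 ± 2.1% (SD, n = 3) of the 3′ end counts of *Paip1* in control cells, between 13.95% and 18.1%, and 20.9 ± 6.2% in HuD cells, between 13.8% and 25.3%. The long form thus predominated in every library, with 74.7% to 86.2% of counts, and the groups overlapped (edgeR diffSpliceDGE, adjusted p = 1.00, unadjusted p = 0.532). The control shares rest on 30 to 41 proximal counts per library.

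*Pabpc1* used its end at the end of the full 3′ UTR for 98.3% to 99.5% of counts in control and 98.6% to 99.6% in HuD cells. The other listed end, 13 to 58 counts per library, belongs to a short transcript that stops inside the gene. Nearly all *Pabpc1* mRNA with a counted end can therefore carry the CRAC window, which lies 166 nt before the main end. *Pabpc4* has ends 10 nt apart, 322 and 332 nt from the stop codon, which is too close to count their reads apart, and its window lies 197 nt before the first. The first took 69.5% to 71.8% of counts in control and 72.3% to 77.4% in HuD cells, which did not overlap (unadjusted p = 0.741, edgeR diffSpliceDGE).

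*Pabpn1* has 3 ends, at 814, 874 and 887 nt from the stop codon. Counted as listed, the first end took 34.8% to 37.4% in control and 36.4% to 46.8% in HuD cells. The last took 42.1% to 46.2% and 31.7% to 44.3%, with overlap for both (unadjusted p = 0.689, edgeR diffSpliceDGE). None of its ends has AAUAAA in the last 40 nt, and only the middle one has AUUAAA. *Paip2* has a single listed end. No member of the 4 with several ends passed with edgeR, and none had an unadjusted p-value under 0.05, where 0.0301% of 3317 genes passed (1 gene) and 5 genes had an unadjusted p-value under 0.05. So few genes reached that threshold that its absence in the members says little about their ends.

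**Figure D5:**
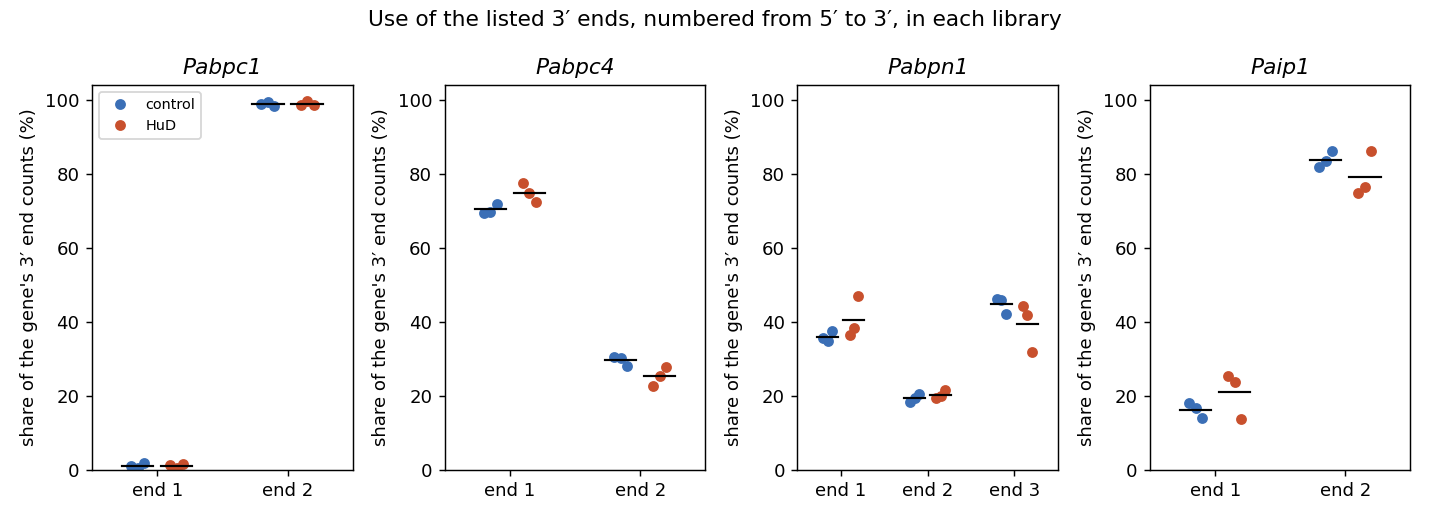
Share of each gene's 3′ end counts, in percent, at each listed end, numbered from 5′ to 3′, in the 3 control and 3 HuD libraries (points) with the group mean (line). *Paip1* used its distal end for 74.7% to 86.2% of counts in every library, and *Pabpc1* its main end for over 98%.

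The other genes of the pathway were followed in lists of further PABP genes, cap-side initiation factors, PABP-binding proteins, deadenylases and nuclear polyadenylation factors, 57 in all. Of these 52 were tested in RNA-Seq and POL-Seq. None passed with edgeR in any comparison without a block. On polysomes, 1 was higher and 2 lower at an unadjusted p-value under 0.05 in control cells, and 2 higher and 6 lower in HuD cells. Of all 14906 genes, 663 were higher and 931 lower at that threshold in control cells, and 723 and 1132 in HuD cells. DESeq2 called 0 and 1 list genes, and edgeR with the replicate block 0 and 2. No list gene reached an unadjusted p-value under 0.05 for the effect of HuD in total RNA, polysomal RNA or TE. In 3′ end counts 2 of 42 did, both lower, beside 5.87% of all genes (0 called with DESeq2 in each). Their median log2 ratio on polysomes was 0.10 in control and 0.03 in HuD cells, beside the 0.01 of all genes in both, so that the low ratio of *Pabpc1* was not one that these lists had in common. Against the background of 9.9% of protein coding genes, not matched for mRNA level, CRAC windows were listed for 11 of the 52. They were, by coverage, the deadenylase subunit gene *Cnot6* (738 reads), *Eif4a1* (146), *Larp4* (119), *Eif4a2* (83), *Cnot7* (66), *Nudt21* (28), *Papola* (19), *Eif4h* (17), *Cpsf7* (12), *Mkrn1* (6) and *Eif4g3* (6). Among them and the 6 genes together, only *Cnot6* had more covering reads than *Pabpc1*.

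The genes most like each member were found from log2 CPM across the 8 RNA-Seq and POL-Seq libraries, among 9701 others with a mean of at least 10 CPM. For *Pabpc1* they were *Gid4*, *Mpi* and *Spop* (Pearson r = 0.995, 0.994 and 0.993), and for *Pabpc4* *H19*, *Coq6* and *Miip* (0.993, 0.981 and 0.980). *Pabpn1* was most like *Edc4*, *Vps16* and *Leng8* (0.971, 0.969 and 0.968), and *Paip1* most like *Glrx3*, *Usp1* and *Zzz3* (0.991, 0.991 and 0.988). For *Paip2* they were *Fetub*, *Snap29* and *Slc17a5* (0.969, 0.961 and 0.959), and for *Paip2b* *Ralgps2*, *Ccnc* and *Llph* (0.973, 0.971 and 0.971). The 8 libraries fall into polysomal and total fractions, so these values describe a shared profile over few points and were not tested. No member was among the 3 genes most like another.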

How the data were processed

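The members and gene lists were chosen with earlier results of these data known. The authors deposited raw read counts per gene for RNA-Seq and POL-Seq (the labels name STAR 2.5.3a and GRCm38.p4). Whether the counts used strand is not given in the sources used here. For 3′ ends they deposited counts of reads starting near annotated polyadenylation sites, a row per transcript, reduced here to unique ends. For CRAC (TopHat2 2.0.14 in the labels) the authors pooled replicates and deposited coverage (a signal in reads), counts of deletions, a combined p-value and a score of each site against their weight matrix. CRAC depth per library is unknown.

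The count tests used edgeR 4.0.16 in R 4.3.3 (TMM, filterByExpr, quasi-likelihood F-test over all groups of a table, Benjamini-Hochberg threshold 0.05). The SE is the log2 change over the root of F, and the 95% interval uses the t distribution of that fit. TE was tested as a fraction-by-HuD interaction, and 3′ end use by diffSpliceDGE with Simes' method. Alternatives were DESeq2 1.42.0, its size factors, no filter, a replicate block, only the groups compared, each library left out, merged ends and other CRAC measures. The labels do not say what a shared replicate number stands for. Between groups, the deviations from the group mean correlated for each replicate number (r = 0.188 to 0.387 in the 6 pairs of RNA-Seq and POL-Seq groups, and 0.400, 0.657 and 0.515 for 3′ ends). FPKM took exon lengths from GENCODE vM21. Procedures were tested on simulated data. Named genes were the 6 members, *Elavl4*, list genes past the threshold or with a CRAC window, and the 3 genes most like each member. Precision is limited by 2 or 3 libraries a group. In the main fits, p-values set a difference against the spread between libraries within groups, estimated over all groups with information shared across genes.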

Additional observations from a re-analysis of the deposited data

How the results depend on the processing

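*Pabpc1* kept its lower polysomal than total level under all alternatives run, but not its call. With only the groups compared, 0 genes were called on polysomes in control cells, 0 of them members, and 353 in HuD cells, 2 of them members (*Pabpc1* and *Pabpc4*). DESeq2 called 67 and 240, with 1 and 2 members, and the replicate block 41 and 416, with the same numbers of members. With 1 library left out, 0 to 2145 genes and 0 to 2 members were called in control cells (2145 without polysomal control 1), and 0 to 411 genes and 0 to 2 members in HuD cells. A group left with 1 library was assumed to vary like the others. The causes were not tested.

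For the effect of HuD, no member was called under any alternative run. In total RNA DESeq2 and the fit to the groups compared called 1 gene each, and 0 to 1 with a library left out. In polysomal RNA DESeq2 called 3 genes, and 0 to 372 were called with a library left out (372 without polysomal control 1), as were 0 to 47 for TE (47 without polysomal control 1). In 3′ end counts DESeq2 called 35 genes, the replicate block 217, and 2 to 14 were called with a library left out. For 3′ end use this gave 0 to 1 gene.

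Changes near 0 turned sign. In total RNA that of *Pabpc1* was 0.0016 with DESeq2 size factors, 0.0017 with DESeq2 and 0.00099 with only the groups compared. With a library left out it ranged from -0.060 to 0.053, that of *Pabpc4* from -0.13 to 0.039, of *Pabpn1* from -0.022 to 0.44, of *Paip1* from -0.14 to 0.037 and of *Paip2b* from -0.0084 to 0.11. On polysomes of HuD cells the range was -0.040 to 0.14 for *Paip1* and -0.015 to 0.15 for *Elavl4*. For TE it was -0.23 to 0.23 for *Pabpn1*, -0.053 to 0.20 for *Paip2*, -0.038 to 0.079 for *Paip2b* and -0.37 to 0.027 for *Elavl4*. In 3′ end counts it was -0.26 to 0.12 for *Pabpc4*, -0.15 to 0.16 for *Pabpn1* (-0.0056 with the replicate block) and -0.11 to 0.49 for *Paip2*. The share of the main *Pabpc1* end, HuD minus control, was -0.29 to 0.36 points.

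By deletions instead of coverage *Pabpc1* held 51.4% of the CRAC signal on the members, and at a p-value of the authors under 0.05 it was the only 1 with a window, with 100% of coverage. CRAC values have no replicate error.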
